A study of Mus musculus with 6 samples.

Results

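The family of miR-15, miR-16, miR-195 and miR-497 was followed in liver, in 3 mice of genotype *Apcfl/fl* and 3 of genotype *Apc+/+*. Its members were taken by name from the panel, as the guide strands of mmu-miR-15a, mmu-miR-15b, mmu-miR-16, mmu-miR-195 and mmu-miR-497, and each had 1 probe of its own, so that the family made up 5 of the 566 mouse miRNA probes. *Apcfl/fl* mice were homozygous for a hypomorphic *Apc* allele and had hepatocarcinoma (HCC) with active Wnt/β-catenin signalling, while *Apc+/+* mice had a normal liver without tumour; both were C57Bl/6. RNA was extracted from frozen liver and counted with the NanoString assay. In it miRNAs are captured by colour-coded probes, some of them shared by several miRNAs, and counted without amplification. The sources used here name no Cre driver, age or sex for these mice and give no tumour content for the tissue taken. *Apc* mRNA was not measured by this panel, so the genotype rests on the labels.

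miRNAs of this family load onto Argonaute and pair through their seed, the bases near the 5′ end, with messenger RNAs, which are then translated less or degraded. They are best known as brakes on the cell cycle and on survival: cyclin D1, cyclin E1, CDK6, WEE1, CHK1 and BCL2 are established targets. The locus of miR-15a and miR-16-1 is deleted in many chronic lymphocytic leukaemias, and in the heart miR-195 takes part in the withdrawal of cardiomyocytes from the cell cycle after birth. These messenger RNAs and proteins were not measured in these livers.

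The mature sequences show why these miRNAs are treated as a family and where their probes could tell them apart. All 5 members matched a mature sequence in RefSeq (assembly GRCm38.p6). The seed, bases 2 to 8, is in capitals.
mmu-miR-15a: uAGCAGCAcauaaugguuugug
mmu-miR-15b: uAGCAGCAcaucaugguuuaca
mmu-miR-16: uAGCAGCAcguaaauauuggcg
mmu-miR-195: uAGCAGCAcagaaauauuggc
mmu-miR-497: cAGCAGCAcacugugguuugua

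Bases 2 to 8 were identical in the 5 members. Of the 1679 mature miRNA names in the reference, 10 carried this seed, and 6 of these had a probe on the panel, the 5 members and mmu-miR-322. Beyond the seed the sequences diverged. mmu-miR-15a and mmu-miR-15b differed at 4 of 22 positions counted from the 5′ end, mmu-miR-15a and mmu-miR-16 at 6 of 22, and mmu-miR-15b and mmu-miR-16 at 8 of 22. The closest pair was mmu-miR-16 and mmu-miR-195, which differed at 2 of 21 positions, and the farthest was mmu-miR-16 and mmu-miR-497, at 11 of 22. Cross-detection between such similar molecules was not tested.

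The members come from 3 clusters. Mir15a and Mir16-1 lie on the minus strand of chromosome 14, with mature starts 139 bases apart, at chr14:61632075-61632096 and chr14:61631936-61631957, inside the long non-coding RNA gene Dleu2. Mir15b and Mir16-2 lie on the plus strand of chromosome 3, with starts 143 bases apart, at chr3:69009775-69009796 and chr3:69009918-69009939, inside Smc4, which encodes a subunit of condensin, the complex that compacts chromosomes for mitosis. Mir497 and Mir195a lie 332 bases apart on the plus strand of chromosome 11, at chr11:70234730-70234751 and chr11:70235062-70235082, and no other gene of the table spans them. These positions are those of RefSeq on GRCm38.p6, and the counts themselves carry no coordinates.

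The next hairpins are shown because miR-16 has 2 genes, 1 beside Mir15a and 1 beside Mir15b. The mature guide strand is in capitals.
Mir16-1: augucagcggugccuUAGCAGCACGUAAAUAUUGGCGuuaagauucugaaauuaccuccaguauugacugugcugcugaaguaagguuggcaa
Mir16-2: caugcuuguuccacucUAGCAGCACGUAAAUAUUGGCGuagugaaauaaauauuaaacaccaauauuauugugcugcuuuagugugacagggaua
Mir15b: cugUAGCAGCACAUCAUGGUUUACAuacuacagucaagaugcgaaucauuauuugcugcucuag

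Both miR-16 hairpins release the same 22 bases, so the single miR-16 probe counted the output of both clusters together. Their passenger strands would separate the clusters, but 0 probes of the panel were for a passenger strand of these hairpins.

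The total count on mouse miRNAs was 82942 to 133331 per liver. A miRNA was tested where its mean count over the 6 livers was at least 20, which left 174 miRNAs, and background was read from probes for viral miRNAs. Their mean plus 2 SD in a liver set its limit, at 13.1 to 27.8 counts per liver. *Apc+/+* liver 3 stood apart, with 33% of its counts on miR-720 and a TMM scaling factor of 0.655, against 0.959 to 1.25 in the other livers. Because of this, changes in level are given with TMM scaling, relations between members are also given as ratios inside 1 liver, which no scaling can move, and values without single livers are added where they differ.

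Of the 5 members, mmu-miR-15a, mmu-miR-15b and mmu-miR-16 exceeded the viral probe limit of every liver, mmu-miR-497 was barely past the count minimum, and mmu-miR-195 was below it. Among the 566 mouse probes, miR-720 included, mmu-miR-16 was the 9th by mean count and held 1.85% of their counts. mmu-miR-15a was 29th and mmu-miR-15b 41st. mmu-miR-497 was 171st and mmu-miR-195 213th. Probes may differ in efficiency, so these places order the counts and not the molecules.

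The 3 abundant members did not move together. mmu-miR-15b was higher in every *Apcfl/fl* liver than in any *Apc+/+* liver, 1.82-fold by the fit, without passing the adjusted threshold, whereas the levels of mmu-miR-15a and mmu-miR-16 overlapped between the genotypes. Of the 4 members tested, 1 was higher and 0 were lower in *Apcfl/fl* liver at an unadjusted p-value under 0.05, a threshold passed by 13.8% of all tested miRNAs on the higher side and by 10.9% on the lower side. None (0 of 4) reached an adjusted p-value under 0.05 in the quasi-likelihood fit of edgeR, which called 0% of the 174 miRNAs. DESeq2 called 11.5% of the 174 as higher, mmu-miR-15b among them, and limma called none of the members.

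**Figure D1:**
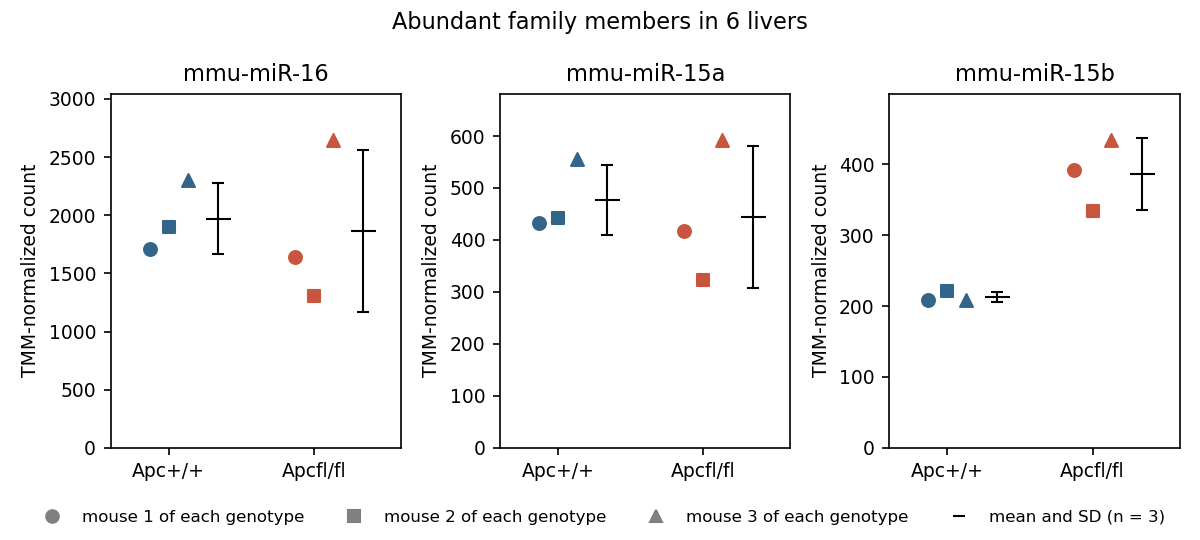
TMM-normalized counts of mmu-miR-16, mmu-miR-15a and mmu-miR-15b in each liver, on linear axes that start at 0; symbols are single mice, and the bar beside them is the mean and SD (n = 3). For mmu-miR-15b all 3 *Apcfl/fl* livers lie above all *Apc+/+* livers, while for the others the genotypes overlap.

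mmu-miR-15b (MIMAT0000124) was counted 165.33, 180.33 and 170.33 times in the healthy *Apc+/+* livers, as deposited, against 435.33, 315.33 and 662.33 times in those of *Apcfl/fl* mice. After TMM scaling these became 208.2, 221 and 208.8 normalized counts in healthy liver, against 391.3, 333.6 and 434.7 in *Apcfl/fl* mice 1, 2 and 3. The *Apc+/+* livers were nearly alike, with a coefficient of variation of 3.38%, and the lowest *Apcfl/fl* liver, mouse 2, still lay above all of them. Such a separation, with every *Apcfl/fl* liver on the higher side, was found for 15.5% of the tested miRNAs, and for 18.4% on the lower side.
Normalized counts averaged 212.7 ± 7.19 (SD, n = 3) in healthy liver and 386.5 ± 50.7 (SD, n = 3) in liver with HCC. This was a log2 fold change of 0.86 with an SE of 0.20 and an adjusted p of 0.056 by edgeR, and the 95% confidence interval of the fold ran from 1.31 to 2.52. The two-sided exact permutation test gave p = 0.1, below which a design of 3 mice against 3 cannot go. Among the tested miRNAs with a higher fitted level, mmu-miR-15b had the 5th smallest p-value, and among all tested miRNAs the 11th smallest. Its adjusted p-value was the lowest of the panel, shared by 11 miRNAs, of which mmu-miR-15b had the largest unadjusted p-value. Over 15 alternatives in the processing its log2 fold change stayed positive, from 0.75 to 1.29, and its adjusted p-value ran from 0.0034 to 0.20 and was under 0.05 in 7. Scaling on the total moved the median of all tested miRNAs from 0.01 to 0.46 (log2), and mmu-miR-15b was then at 1.27, or 0.82 above that median. More or fewer cells holding a miRNA and more or less of it per cell cannot be told apart in RNA from whole liver, and this holds for every level given here.

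mmu-miR-16 (MIMAT0000527), the most abundant member, was counted 1351.67, 1542.67 and 1876.67 times in healthy liver, against 1826.67, 1235.67 and 4033.67 times in *Apcfl/fl* mice 1, 2 and 3. Normalized, these were 1706, 1894 and 2305 against 1643, 1309 and 2649 counts. The *Apcfl/fl* livers held both the highest and the lowest level, in mice 3 and 2, and the *Apc+/+* livers lay between.
The mean was 1969 ± 306 (SD, n = 3) against 1867 ± 697 (SD, n = 3), which the fit gave as -0.08 (log2; SE 0.29) with an adjusted p of 0.87 by edgeR, and with a 95% confidence interval of the fold from 0.585 to 1.54. The fitted fold of mmu-miR-15b, 1.82, lay above this interval, but the intervals of both miRNAs overlapped, as that of mmu-miR-15b began at 1.31. The sign for mmu-miR-16 depended on the scaling. Its log2 fold change became 0.39 when libraries were scaled on their total, though -0.07 when the shift of the median was taken off. It ranged from -0.44, without *Apcfl/fl* mouse 3, to 0.17, without *Apcfl/fl* mouse 2.

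mmu-miR-15a (MIMAT0000526) followed mmu-miR-16 from liver to liver. It was counted 343.33, 361.33 and 452.33 times in healthy liver against 464.33, 305.33 and 903.33 times in *Apcfl/fl* mice, and its normalized counts were 432.9, 443.2 and 555.2 against 417.4, 323 and 592.9. As for mmu-miR-16, *Apcfl/fl* mouse 3 was the highest liver and *Apcfl/fl* mouse 2 the lowest. The mean was 477.1 ± 67.8 (SD, n = 3) against 444.4 ± 137 (SD, n = 3), and the fitted difference was -0.10 (log2; SE 0.27) with an adjusted p of 0.83 by edgeR and a 95% confidence interval of the fold from 0.599 to 1.45. It too turned positive with the total count, at 0.36.

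Ratios between members in the same liver do not depend on how libraries were scaled. The question put to them was whether the members kept their balance in *Apcfl/fl* liver, and 5 ratios were compared. The mmu-miR-16 probe counted both of its clusters together. A ratio of mmu-miR-15a or mmu-miR-15b to mmu-miR-16 therefore does not set cluster against cluster. mmu-miR-15a stood to mmu-miR-16 as 0.254, 0.234 and 0.241 in the *Apc+/+* livers and as 0.254, 0.247 and 0.224 in the *Apcfl/fl* livers. This ratio was nearly the same in all 6 livers although their miR-16 counts spanned 1235.67 to 4033.67, and the mean log2 ratio differed by -0.01 between genotypes, which is less than the SD of 0.0593 and 0.0959 among the 3 mice of each (exact permutation p = 1, two-sided).
Against mmu-miR-15a, mmu-miR-15b stood at 0.482, 0.499 and 0.377 in healthy liver against 0.938, 1.03 and 0.733 in *Apcfl/fl* mice. All *Apcfl/fl* livers were above all *Apc+/+* livers, with geometric means 1.99-fold apart, a log2 difference of 0.99 (SD 0.221 and 0.255, n = 3 each; two-sided exact permutation test, p = 0.1, or 0.25 after Benjamini-Hochberg adjustment over the 5 ratios).
Against mmu-miR-16 the same held: the ratio of mmu-miR-15b was 0.122, 0.117 and 0.0908 in healthy liver against 0.238, 0.255 and 0.164 in *Apcfl/fl* mice, 1.97-fold apart (log2 difference 0.98, SD 0.232 and 0.342, n = 3 each; exact permutation p = 0.1, adjusted 0.25). Both differences exceeded the spread between mice, and with 3 mice against 3 no smaller p was possible. In each of 8 alternatives, which left out single livers, subtracted background or added 5 counts, both ratios of mmu-miR-15b stayed higher in *Apcfl/fl* liver, by 0.85 (log2) or more without any 1 liver.

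**Figure D2:**
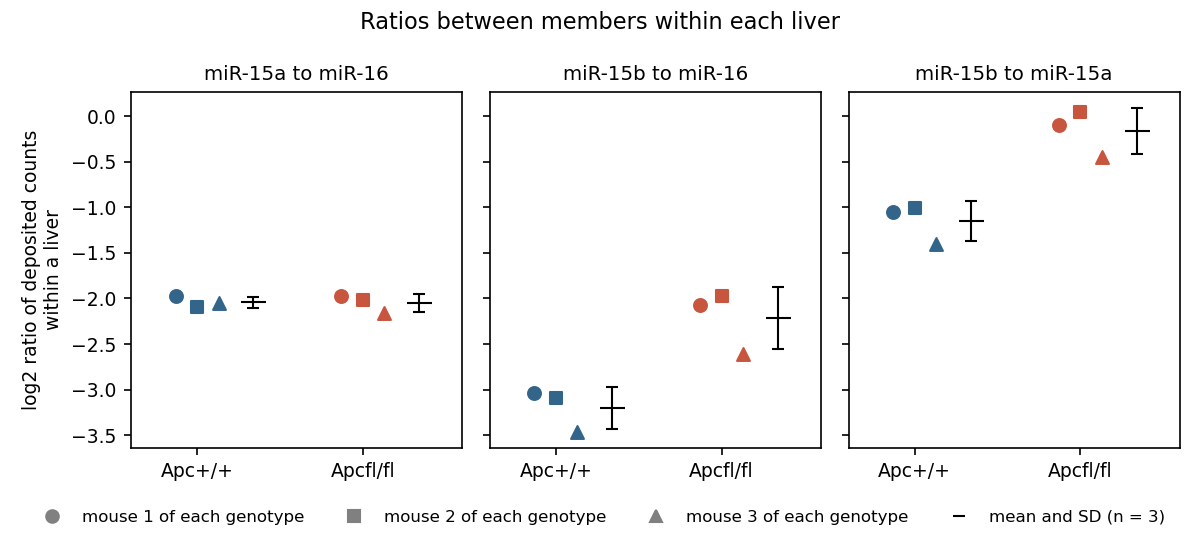
Log2 ratios of the deposited counts of 2 members inside each liver, a scale on which 1 unit is a doubling; symbols are single mice, and the bar is the mean and SD (n = 3). The ratio of mmu-miR-15a to mmu-miR-16 stays near -2 in all 6 livers, whereas both ratios of mmu-miR-15b lie higher in the 3 *Apcfl/fl* livers, with no overlap.

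Of the family's counts, mmu-miR-15b held 8% ± 1.09 (SD, n = 3) in healthy liver and 14.7% ± 2.67 (SD, n = 3) in liver with HCC. mmu-miR-16 held 72.9% ± 1.39 and 67.7% ± 2.95, and mmu-miR-15a 17.7% ± 0.624 and 16.3% ± 0.513. These shares sum to a whole, so that a larger share of 1 member lowers the others. The family together took 2.15% ± 0.225 of mouse miRNA counts in *Apc+/+* and 2.99% ± 1.23 in *Apcfl/fl* liver, where it ranged from 1.83% in mouse 2 to 4.28% in mouse 3. With TMM scaling the family summed to 2695 ± 367 against 2729 ± 894 normalized counts (SD, n = 3 each), and the genotypes overlapped on both scales.

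Correlations over all livers, which include the genotype difference, divided the members in the same way. Over the 6 livers, the Pearson correlation of normalized log2 counts between mmu-miR-15a and mmu-miR-16 was 0.988, and for each of them the other was the most alike of the 173 other tested miRNAs. miR-804 (0.845 with mmu-miR-15a, 0.855 with mmu-miR-16) and miR-19a (0.829 and 0.837) came next. By another measure, added after the values were seen, the log2 ratio of mmu-miR-15a to mmu-miR-16 had an SD of 0.0715 over the 6 livers, whereas the median SD over all partners of mmu-miR-15a was 0.636.
mmu-miR-15b, in contrast, had correlations of -0.02 with mmu-miR-15a and 0.02 with mmu-miR-16. The tested miRNAs most like it were miR-191 (0.963), miR-106b (0.948), a member of the miR-106b-25 cluster, and miR-340-5p (0.94). These correlations describe 6 livers that share the genotype difference and the scaling, so they are not separate evidence that mmu-miR-15b varied apart. Among the *Apcfl/fl* livers alone, all 3 abundant members were highest in mouse 3 and lowest in mouse 2. Among the *Apc+/+* livers mmu-miR-15b was highest in mouse 2, and mmu-miR-15a and mmu-miR-16 in mouse 3.

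mmu-miR-497 and mmu-miR-195 were scarce. mmu-miR-497 (MIMAT0003453) was counted 20, 28 and 9 times in healthy liver and 11, 17 and 40 times in *Apcfl/fl* mice, where the viral probe limits were 20, 23.3 and 14.3, and 27.8, 13.1 and 19.2. It lay far above the limit only in *Apcfl/fl* liver 3. It was a few counts above in *Apc+/+* liver 2 and *Apcfl/fl* liver 2, and at the limit in *Apc+/+* liver 1. Normalized, it averaged 23.6 ± 11.7 (SD, n = 3) and 18.1 ± 8.18 (SD, n = 3). The fitted difference was -0.37 (log2), with a 95% confidence interval of -1.80 to 1.05 and an adjusted p of 0.74 by edgeR. This interval is wide at this depth, and runs from a fall to 0.287-fold to a rise to 2.07-fold.
mmu-miR-195 (MIMAT0000225), from the same cluster, was counted 5.33, 14.33 and 13.33 times in healthy liver and 9.33, 9.33 and 31.33 times in *Apcfl/fl* mice. Only *Apcfl/fl* liver 3 was above its limit, so no fold change is given. Normalized, it averaged 13.2 ± 5.96 (SD, n = 3) and 12.7 ± 6.7 (SD, n = 3), within their SD of each other (exact permutation p = 1). The ratio of mmu-miR-195 to mmu-miR-497 ran from 0.267 to 1.48 over the livers and overlapped between the genotypes (exact permutation p = 0.7, adjusted 1). Its ratio to mmu-miR-16, which its sequence resembles most, ran from 0.0039 to 0.0093 and overlapped too (exact permutation p = 0.8, adjusted 1).

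**Figure D3:**
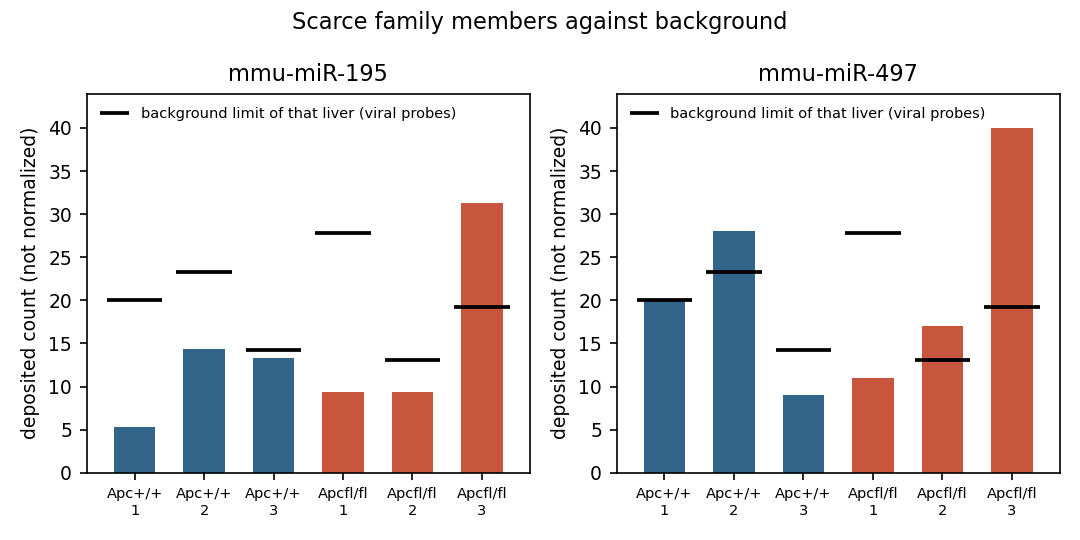
Deposited counts of mmu-miR-195 and mmu-miR-497 in each liver (bars, blue *Apc+/+*, red *Apcfl/fl*), with the viral probe limit of that liver as a black line. mmu-miR-195 passes the limit in *Apcfl/fl* liver 3 alone, and neither miRNA separates the genotypes.

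2 near relatives outside the family were on the panel, made from 1 cluster on the X chromosome, and both are known to act on the same cyclins. They are shown to compare their seeds with that of the family.
mmu-miR-322: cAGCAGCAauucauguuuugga
mmu-miR-503: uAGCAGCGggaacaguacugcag

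mmu-miR-322, with the family's seed, was counted 24.33, 40.33 and 18.33 times in healthy liver and 74.33, 18.33 and 99.33 times in *Apcfl/fl* mice. It was above the viral probe limit in all 6 livers. Normalized, it was 66.6 and 65 in *Apcfl/fl* mice 1 and 3, above all *Apc+/+* mice, and 19.1 in *Apcfl/fl* mouse 2, below all of them. Its fitted difference was 0.57 (log2; SE 0.59), with a 95% confidence interval of -0.82 to 1.96 and an adjusted p of 0.58 by edgeR. mmu-miR-503, whose seed ends in another base, had at most 5.33 counts and was under the limit in every liver.

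Other miRNAs known to act on the G1 to S transition or on proliferation lay on both sides. Of 33 names, which 30 probes covered, 23 were tested, 12 with a higher and 11 with a lower fitted level, and the median log2 fold change was 0.10, beside 0.01 for all tested miRNAs. At an unadjusted p-value under 0.05, 2 of the 23 were higher and 2 lower, beside 13.8% and 10.9% of all tested miRNAs. The higher ones were let-7i, with a log2 fold change of 1.04 (adjusted p = 0.059), and miR-106b, with 0.88 (adjusted p = 0.16).
The lower ones were let-7g, at -0.90 (adjusted p = 0.056), and let-7a, at -0.82 (adjusted p = 0.068). let-7 miRNAs restrain growth-promoting genes such as Ras and Hmga2, and their members differ by few bases, so their probes may share signal. For 3 of the 23 the *Apcfl/fl* livers were all higher and for 6 all lower than the *Apc+/+* livers, beside 15.5% and 18.4% of all tested miRNAs. With the total count as library size, 4 of the list were higher and 0 lower at an unadjusted p-value under 0.05, and with miR-720 left out of that total 7 and 0.

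**Figure D4:**
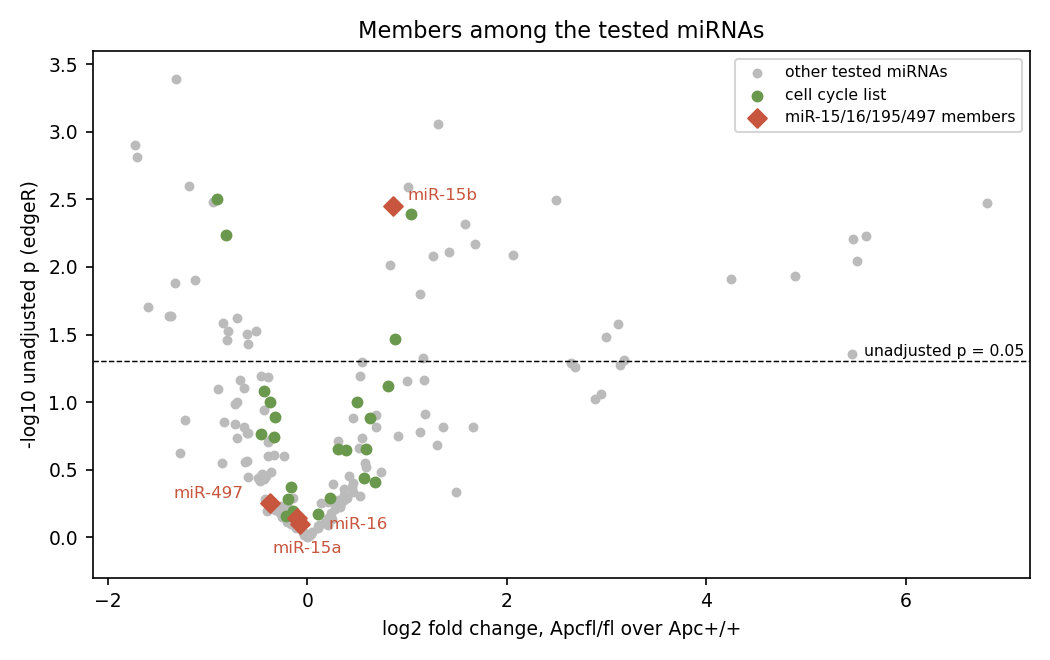
Log2 fold change (horizontal) and -log10 of the unadjusted p-value of edgeR's test (vertical) for the 174 tested miRNAs; diamonds are the 4 tested members, green points the cell cycle list, and the dashed line marks 0.05. mmu-miR-15b is the only member above the line, and the other 3 lie low and close to 0.

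The RNA carried the miRNA pattern of liver, with miR-122, the main hepatocyte miRNA, in every library, but the summed levels of several cell type markers differed between the genotypes. With TMM scaling, all 5 hepatocyte miRNAs (miR-122, miR-192, miR-194, miR-101a and miR-802) were lower in each *Apcfl/fl* than in each *Apc+/+* liver (18.4% of all tested miRNAs were), 4 of them at an unadjusted p-value under 0.05 (10.9%), and their summed normalized count went from between 24830 and 39770 to between 8254 and 14050. Scaled on the total, only miR-122 of the 5 was lower in each *Apcfl/fl* liver and at an unadjusted p-value under 0.05. The sum of the 5 stayed apart, at 237200 to 307700 against 95180 to 142200 CPM, but both sums were mostly miR-122. In *Apc+/+* liver miR-122 averaged 29867 TMM-normalized counts, against 1776 for miR-194, 1375 for miR-192, 122 for miR-101a and 106 for miR-802. With TMM scaling, the sum of 5 mesenchymal miRNAs was 893.5 to 1317 against 322 to 724.9, with 2 of 4 tested members lower at that threshold (1, miR-145, when scaled on the total, where the sums overlapped), and that of both miR-126 strands, endothelial miRNAs, was 3585 to 3808 against 2764 to 3553, with 0 of 2 past it, and overlapped when scaled on the total. The sum of 5 leucocyte miRNAs was 171.6 to 368.3 against 242.9 to 636.9, with miR-223 higher at that threshold and miR-142-5p under the limit in all livers. miR-155 stood at the lowest value, 1, in all but *Apcfl/fl* livers 2 and 3 (78.33 and 58.33 counts), through which alone it passed the count minimum. It is therefore not counted at that threshold, but the sum includes it, with 82.6 and 38.1 normalized counts in *Apcfl/fl* livers 2 and 3. The 5 epithelial miRNAs of the miR-200 family summed to 73.2 to 141.2 against 72 to 212.9, with miR-141 and miR-200c under the limit in all livers. The part of these cells in the level of mmu-miR-15b was not tested.
Red blood cells are rich in miR-16 and are marked by miR-451, miR-144 and miR-486. Their sum was 856.9 to 1404 normalized counts in *Apc+/+* and 796.1 to 4562 in *Apcfl/fl* liver, with 0 of 3 past an unadjusted p-value of 0.05, or 1 higher when scaled on the total. The highest miR-451, 3806 normalized counts, was in *Apcfl/fl* mouse 2, the liver with the lowest mmu-miR-16, mmu-miR-15a and, among *Apcfl/fl* livers, mmu-miR-15b. The part of blood in these levels was not tested.

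**Figure D5:**
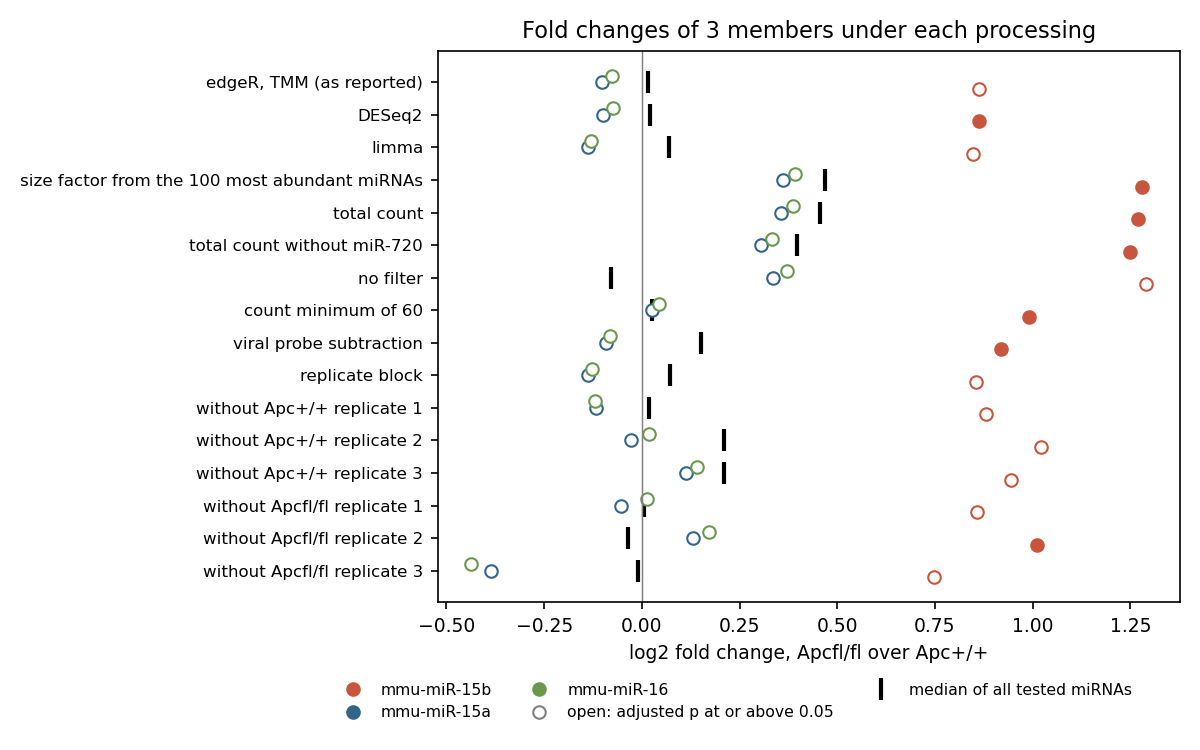
Log2 fold changes (*Apcfl/fl* over *Apc+/+*) of mmu-miR-15b, mmu-miR-15a and mmu-miR-16 in the fit as reported and under 15 alternatives, one per line; filled circles have an adjusted p-value under 0.05, open ones do not, and the black tick is the median of all tested miRNAs. mmu-miR-15b lies right of the others on every line, while those change sign with the scaling and with single livers left out.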

How the data were processed

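The authors deposited estimated counts per probe for 6 livers, in a table they call non-normalized, with a lowest value of 1. In all 551 mouse probes with several values above 1 these share 1 decimal part, as subtraction of a constant per probe would leave. That step and the software are not given in the sources used here. Values were rounded to whole numbers. Tests used edgeR 4.0.16 (TMM, quasi-likelihood test, Benjamini-Hochberg adjustment over all 174 mouse miRNAs whose counts averaged 20 or more) in R 4.3.3, with all 6 livers and no replicate block, and two-sided exact permutation tests for single values. The general tests the paper names (Student's, Mann-Whitney) are not tied there to this profile and were not run. Log2 values had a prior count of 2. Ratios used deposited counts with nothing added.

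Members, lists and tests were chosen with earlier results of these data known. Named miRNAs were the members, their relatives, cell type markers, up to 5 of the cell cycle list in each direction at an unadjusted p-value under 0.05, and the 3 miRNAs most correlated with each tested member. For mmu-miR-497 the latter were miR-139-5p (0.789), miR-345-5p (0.769) and miR-132 (0.729).

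The counts of livers of 1 genotype differed beyond sampling noise (chi-square over its degrees of freedom at least 17.2), so none was a copy of another. This cannot tell different mice from repeat preparations of 1 liver. Each liver was treated as 1 sample. The labels do not say more of the mice, so p-values measure the spread between these samples. Limma 3.58.1 and DESeq2 1.42.0 were alternatives. The fit was tested on simulated data.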

Additional observations from a re-analysis of the deposited data

How the results depend on the processing

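mmu-miR-15b stayed higher in *Apcfl/fl* liver under all 15 alternatives, and its adjusted p-value fell under 0.05 with DESeq2 (log2 fold change 0.86), scaling on the top 100 miRNAs (1.28), on the total (1.27) or on the total less miR-720 (1.25), a count minimum of 60 (0.99) and viral probe subtraction (0.92). With 1 liver left out it ranged from 0.75 to 1.02, past the threshold without *Apcfl/fl* replicate 2. mmu-miR-15a and mmu-miR-16 never passed it and turned positive with scaling on the top 100 (0.36 and 0.39), on the total (0.36 and 0.39) or on the total less miR-720 (0.31 and 0.33), no filter (0.34 and 0.37) and the count minimum of 60 (0.026 and 0.043). With 1 liver left out they ranged from -0.39 to 0.13 and from -0.44 to 0.17. mmu-miR-497 was positive with no filter (0.12), and could not be tested with the count minimum of 60, viral probe subtraction, or without *Apc+/+* replicate 2 or *Apcfl/fl* replicate 3. The ratios moved by less than the spread between mice. The labels do not say whether mice of the same number were paired. Deviations from the group means correlated at -0.06, -0.06 and 0.12 between same-numbered livers, which cannot decide this. With the replicate block mmu-miR-15b was at 0.85 (adjusted p = 0.11 by edgeR).

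Among all tested miRNAs, the numbers higher and lower at an adjusted p-value under 0.05 (0 and 0) were 20 and 9 with DESeq2, 1 and 3 with limma, 16 and 1 when scaled on the top 100 or the total, 18 and 3 without miR-720, 12 and 6 with the count minimum of 60, 12 and 7 with viral probe subtraction, 4 and 3 with the replicate block, and 0 to 11 and 0 to 8 with 1 liver left out (11 and 8 without *Apcfl/fl* replicate 3, 5 and 3 without *Apcfl/fl* replicate 2, and 0 lower without any other). At an unadjusted p-value under 0.05 (24 and 19) they were 38 and 3 when scaled on the top 100 or the total, 41 and 4 without miR-720, 54 and 29 with no filter, and 10 lower with the count minimum of 60; with 1 liver left out 8 to 19 were lower, with 8 without *Apc+/+* replicate 2, 10 without *Apc+/+* replicate 3 and 12 without *Apcfl/fl* replicate 1. Of the cell cycle list (2 and 2), 4 and 0 passed when scaled on the top 100 or the total, 7 and 0 without miR-720, 8 and 1 with no filter, 1 higher with the replicate block, and 1 to 4 higher with 1 liver left out (4 without *Apcfl/fl* replicate 1, and 1 without *Apc+/+* replicate 2 or 3 or *Apcfl/fl* replicate 3). The number of miRNAs tested was 174 in the fit as reported, 566 with no filter and 101 with the count minimum of 60. It was 140 with viral probe subtraction, and 154 to 177 with 1 liver left out. Counts under these settings are out of different totals, so a larger or smaller count need not be a larger or smaller share. Why the counts moved was not tested further. Few counts limit what can be said of mmu-miR-195 and mmu-miR-497.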
